A study of Danio rerio with 12 samples.

Results

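The 9 genes il1b, cxcl8a, mmp9, mmp13a, mpx, lyz, mpeg1.1, mpeg1.2 and crp3 encode proteins of myeloid cells and of the inflammatory response, and were read across whole zebrafish larvae (Danio rerio, AB wild-type line). Each was taken by its symbol from the array annotation, through a probe set that carries no other symbol, out of 18963 genes with such a probe set among 73244 features. For a symbol with several such probe sets the one with the highest mean over the 12 arrays was used, which concerned lyz. All 9 passed the filter on low values, which asked that at least 2 arrays reach their own 25th percentile, and each did so on 12 of 12 arrays. RNA of whole larvae was measured on Affymetrix arrays, and every value below is a deposited log2 expression value, so that a difference of 1 is a 2-fold difference.

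The groups were larvae injected with 5-HT (serotonin), larvae injected with reserpine, a drug that blocks the vesicular monoamine transporter, and control larvae, each collected at 4 and at 2 days post fertilisation (dpf). The titles place the 5-HT and reserpine injections at the zygote stage, and for the controls they give no stage. Every group was dechorionated with Proteinase K and was injected in KCl that carried the tracer TRITC-dextran. The controls were given DMSO and ethanol in it, the solvents of reserpine, so they were solvent-injected and no uninjected larvae were analysed here. The labels name ethanol and DMSO as solvents for reserpine and do not state whether the 5-HT solution held them. Each of the 6 groups had 2 arrays, labelled biological replicates, each from RNA of a pool of 30 to 40 larvae, and the dose is not given in the sources used here. Pools average over larvae, so the spread between individual larvae was not measured.

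Zebrafish larvae of these ages rely on innate immunity, carried by macrophages and neutrophils. IL-1β, the product of il1b, is an early cytokine of inflammation that is made as a precursor and cleaved before release. Cxcl8a attracts neutrophils, Mmp9 and Mmp13a are secreted proteases that cut extracellular matrix, Mpx is the myeloperoxidase of neutrophil granules, and lysozyme, from lyz, breaks bacterial cell walls. The mpeg1 genes encode pore-forming proteins related to perforin that are widely used as macrophage markers, and crp3 belongs to the family of C-reactive protein, an acute-phase plasma protein. In whole-larva RNA, fewer cells of a type and less RNA per cell cannot be told apart.

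Listed markers of these cells were present in part, and whole-larva RNA does not show which cells made them. Of the 18 macrophage markers measured, 11 lay above the median of every array, among them csf1ra (9.46 to 10.13), the receptor for the macrophage growth factor, and cd68 (9.72 to 12.45), a lysosomal protein. Of the 14 neutrophil markers 10 did so, such as csf3r (6.77 to 8.41), the receptor for the granulocyte growth factor. The macrophage genes c1qa, c1qb and cd74b and the neutrophil genes illr4, cxcr2 and scpp8 lay below the median of every array, and the chemokine receptor gene cxcr1 lay above it on 1 array. Over all features r was 0.975 to 0.988 between the 2 arrays of a group and 0.934 to 0.966 between ages. Between arrays of the same age in different groups it was 0.959 to 0.990, so replicates were not always the closest arrays. One label of 4 dpf reserpine replicate 2 names the younger age, while its title and age field give 4 days. Its mean over the exocrine pancreas markers, 12.44, lay beside those of the other 4 dpf arrays (12.53 to 12.81) and apart from those of 2 dpf (6.63 to 8.52).

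At 4 dpf against 2 dpf, mpeg1.2 and crp3 rose in 5-HT, reserpine and control larvae. The cytokine gene il1b rose in reserpine and in control larvae, and mmp9 and mpeg1.1 rose in reserpine larvae. No call was made for cxcl8a, mmp13a, mpx or lyz in any of the 3 age comparisons, and no member was called lower. A call is an adjusted p under 0.05 from limma, Benjamini-Hochberg adjusted over all 58127 tested features. In 5-HT larvae 2 of 9 members were called higher, where 5.06% of all tested features were. In reserpine larvae 5 of 9 were called higher, against 4.45% of all features, and in control larvae 3 of 9, against 5.5%. The counts were 2 of 9 in reserpine larvae without reserpine 2 dpf replicate 2 and 1 of 9 in controls without control 2 dpf replicate 1. The median difference over the 9 members was 0.44 in 5-HT larvae, 1.08 in reserpine larvae and 0.69 in control larvae, beside -0.06, -0.05 and -0.05 over all features.

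**Figure D1:**
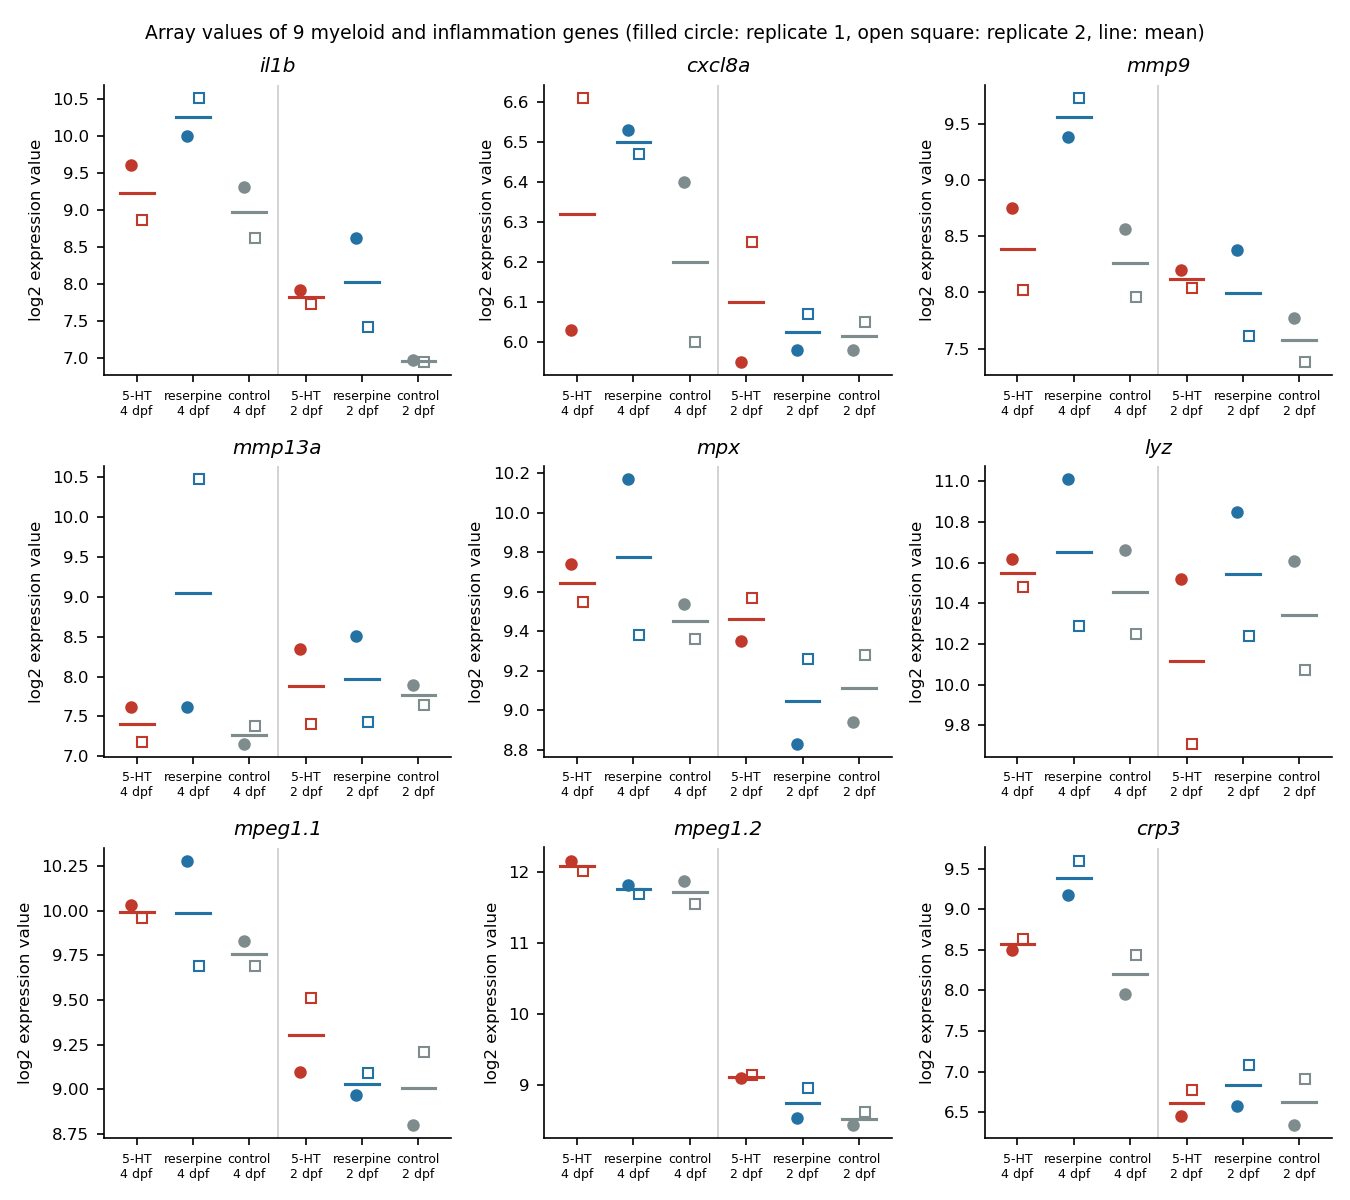
Log2 expression values of the 9 genes on each array, in 1 panel per gene, with the groups along the horizontal axis (filled circles, replicate 1; open squares, replicate 2; lines, group means). The mpeg1.2 and crp3 panels part the ages, with mpeg1.2 at 11.55 or above on every 4 dpf array, while the lyz panel shows replicate 1 above replicate 2 in all 6 groups.

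The macrophage gene mpeg1.2 (probe set 13244573) had the largest age difference of the members. At 4 dpf it read 12.16 and 12.01 in 5-HT larvae, 11.82 and 11.69 in reserpine larvae and 11.88 and 11.55 in controls. The 2 dpf values were 9.09 and 9.13 in 5-HT larvae, 8.53 and 8.96 in reserpine larvae and 8.43 and 8.61 in controls. The ages did not overlap on any array, and 5-HT larvae had the highest group mean at each age. The difference of 4 dpf from 2 dpf was 2.98 in 5-HT larvae (SE 0.18, adjusted p = 2.42e-05), 3.01 in reserpine larvae (adjusted p = 2.55e-05) and 3.195 in controls (adjusted p = 1.67e-05). These are 7.86-, 8.06- and 9.16-fold differences.

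Its paralog mpeg1.1 (probe set 13253890) moved less. It read 10.03 and 9.96 in 5-HT larvae, 10.28 and 9.69 in reserpine larvae and 9.83 and 9.69 in controls at 4 dpf. At 2 dpf it read 9.10 and 9.51 in 5-HT larvae, 8.97 and 9.09 in reserpine larvae and 8.80 and 9.21 in controls. Every 4 dpf array lay above every 2 dpf array here too. The difference passed in reserpine larvae (0.96, SE 0.23, adjusted p = 0.0366) and missed the threshold in 5-HT larvae (0.69, adjusted p = 0.0900) and in controls (0.76, adjusted p = 0.0620). The reserpine call was lost in 7 of the 12 fits that left out 1 array, with adjusted p between 0.0583 and 0.196: without either 2 dpf reserpine array, either 4 dpf control array, either 4 dpf 5-HT array or 4 dpf reserpine replicate 1. The control difference passed without either 4 dpf reserpine array (adjusted p = 0.0416). Whether probes of mpeg1.1 and mpeg1.2 bind RNA of both paralogs was not tested.

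The acute-phase gene crp3 (probe set 13152863) read 8.50 and 8.64 in 5-HT larvae, 9.18 and 9.60 in reserpine larvae and 7.96 and 8.44 in controls at 4 dpf. The 2 dpf arrays gave 6.45 and 6.77 in 5-HT larvae, 6.58 and 7.08 in reserpine larvae and 6.34 and 6.91 in controls. The ages did not overlap, and the reserpine arrays were the highest pair at 4 dpf. It rose by 1.96 in 5-HT larvae (SE 0.27, adjusted p = 0.00294), 2.56 in reserpine larvae (adjusted p = 6.63e-04) and 1.58 in controls (adjusted p = 0.00741). The control call was lost without control 2 dpf replicate 1 (adjusted p = 0.0651) or control 4 dpf replicate 2 (adjusted p = 0.0713). Of the 12 arrays, 10 had crp3 above the array median.

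The cytokine gene il1b (probe set 12971431) read 9.61 and 8.87 in 5-HT larvae, 10 and 10.52 in reserpine larvae and 9.32 and 8.63 in controls at 4 dpf. At 2 dpf it read 7.93 and 7.74 in 5-HT larvae, 8.63 and 7.43 in reserpine larvae and 6.98 and 6.95 in controls. The 2 dpf controls, the lowest pair, were 0.03 apart, while the 2 dpf reserpine replicates were 1.2 apart. Reserpine replicate 1 of 2 dpf equalled the lower 4 dpf control at 8.63. The rise between ages was 2.23 in reserpine larvae (SE 0.40, adjusted p = 0.0110) and 2.01 in controls (adjusted p = 0.0144), 4.69- and 4.03-fold. In 5-HT larvae the difference was 1.41 and just missed the threshold (adjusted p = 0.0574), which it passed without either 2 dpf reserpine array (adjusted p = 0.0226). The reserpine call was lost without reserpine 2 dpf replicate 2 (adjusted p = 0.0513) or reserpine 4 dpf replicate 2 (adjusted p = 0.0574), and the control call without control 2 dpf replicate 1 (adjusted p = 0.0844) or control 4 dpf replicate 1 (adjusted p = 0.101).

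The chemokine gene cxcl8a (probe set 12945797) varied over a range of 0.66 in all and lay above the array median on 2 of 12 arrays. It read 6.03 and 6.61 in 5-HT larvae, 6.53 and 6.47 in reserpine larvae and 6.4 and 6.00 in controls at 4 dpf. At 2 dpf the 6 arrays lay between 5.95 and 6.25. The differences of 4 dpf from 2 dpf were 0.22 in 5-HT larvae, 0.48 in reserpine larvae (SE 0.21, adjusted p = 0.219) and 0.19 in controls. The values of cxcl8a therefore sat low on the array, and the groups of different ages overlapped in 5-HT and control larvae.

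The protease gene mmp9 (probe set 13245734) read 8.75 and 8.02 in 5-HT larvae, 9.38 and 9.73 in reserpine larvae and 8.56 and 7.96 in controls at 4 dpf. The 2 dpf values were 8.20 and 8.04 in 5-HT larvae, 8.38 and 7.61 in reserpine larvae and 7.77 and 7.38 in controls. The 4 dpf reserpine arrays stood above all other arrays. The rise between ages passed in reserpine larvae (1.56, SE 0.33, adjusted p = 0.0223) and not in 5-HT larvae (0.27, adjusted p = 0.671) or controls (0.69, adjusted p = 0.215). The reserpine call was lost without reserpine 4 dpf replicate 1 (adjusted p = 0.0767), reserpine 4 dpf replicate 2 (adjusted p = 0.0927) or reserpine 2 dpf replicate 2 (adjusted p = 0.122).

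The protease gene mmp13a (probe set 12965045) was set apart by 1 array. It read 7.62 and 7.18 in 5-HT larvae, 7.62 and 10.47 in reserpine larvae and 7.16 and 7.38 in controls at 4 dpf, so that 4 dpf reserpine replicate 2 was 2.85 above its replicate. At 2 dpf it read 8.35 and 7.41 in 5-HT larvae, 8.51 and 7.43 in reserpine larvae and 7.89 and 7.64 in controls. Apart from that array the 4 dpf values lay at or below 7.62, and the 2 dpf replicates were up to 1.08 apart. The difference of 4 dpf from 2 dpf was -0.48 in 5-HT larvae, 1.08 in reserpine larvae (SE 0.75, adjusted p = 0.436) and -0.50 in controls. Without 4 dpf reserpine replicate 1 the reserpine difference was 2.5 (adjusted p = 0.0373), and it then rested on replicate 2 alone.

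The neutrophil enzyme genes showed no call between ages. Myeloperoxidase, mpx (probe set 12966690), read 9.74 and 9.55 in 5-HT larvae, 10.17 and 9.38 in reserpine larvae and 9.54 and 9.36 in controls at 4 dpf. The 2 dpf arrays gave 9.35 and 9.57 in 5-HT larvae, 8.83 and 9.26 in reserpine larvae and 8.94 and 9.28 in controls. The ages overlapped in 5-HT larvae and did not in the other groups, where the differences were 0.73 in reserpine larvae (adjusted p = 0.131) and 0.34 in controls (adjusted p = 0.453). Without 4 dpf reserpine replicate 2 the reserpine difference was 1.13 (adjusted p = 0.0350). Lysozyme, lyz (probe set 13151061), read 10.62 and 10.48 in 5-HT larvae, 11.01 and 10.29 in reserpine larvae and 10.66 and 10.25 in controls at 4 dpf. At 2 dpf it read 10.52 and 9.71 in 5-HT larvae, 10.85 and 10.24 in reserpine larvae and 10.61 and 10.07 in controls. The lyz differences between ages were 0.44 in 5-HT larvae (SE 0.35), 0.11 in reserpine larvae and 0.12 in controls. In controls the 95% interval of the lyz difference was -0.66 to 0.89, while that of mpeg1.2 was 2.79 to 3.60.

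**Figure D2:**
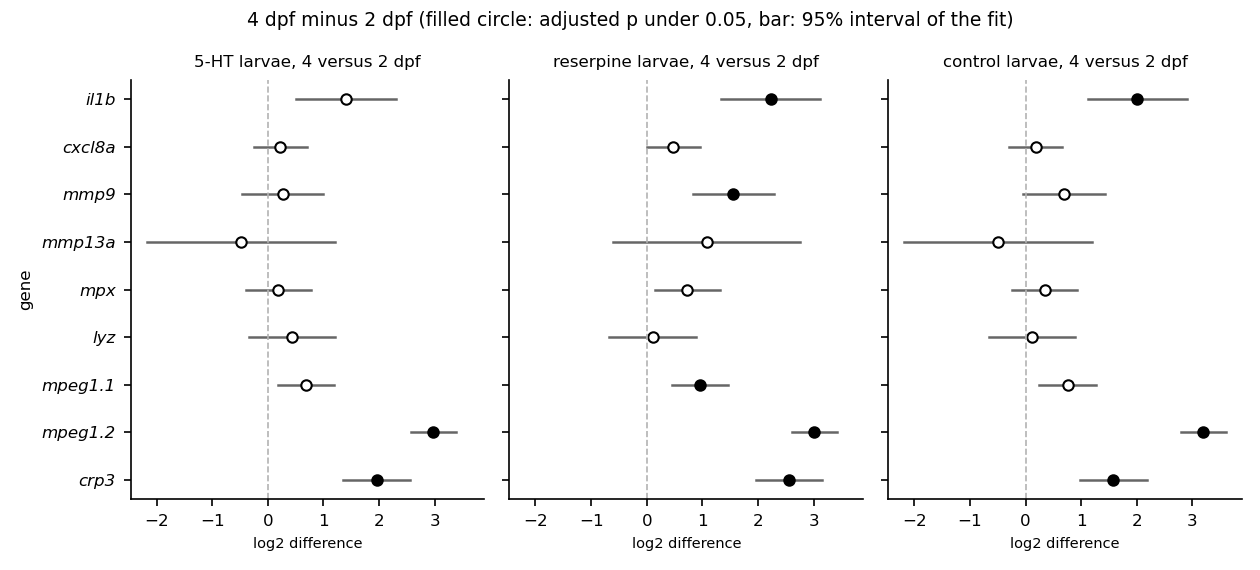
Log2 difference of 4 dpf from 2 dpf for each gene, in panels for the treatments and the controls (points, estimates; bars, 95% intervals of the limma fit). The mpeg1.2 estimates lie between 2.975 and 3.195 in all 3 panels, and the mmp13a bars are the widest, at SE 0.75.

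Counted without regard to a test, 4 of 9 members had both 4 dpf arrays above both 2 dpf arrays in 5-HT larvae (24.4% of all features), 7 of 9 in reserpine larvae (21.6%) and 6 of 9 in controls (25%). In controls mmp13a ran the other way without overlap, as 32.2% of all features did. The 2 reserpine members that overlapped were mmp13a and lyz.

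Related genes were read in the same age comparisons. Of all tested features 5.06% were called higher and 4.15% lower in 5-HT larvae, 4.45% and 2.5% in reserpine larvae, and 5.5% and 5.82% in controls, and the counts below stand beside those shares. Among macrophage markers 3 of 18 rose in 5-HT larvae, 3 of 18 in reserpine larvae and 4 of 18 in controls, and none fell (medians 0.38, 0.36 and 0.60). They included lygl1, a lysozyme-like gene (1.42, 1.63 and 1.23 in 5-HT, reserpine and control larvae), and lgmn, a lysosomal protease (1.18, 1.06 and 1.01). The lysosomal gene cd68 read 12.34 and 12.38 in 4 dpf controls, against 9.72 and 11.05 in 2 dpf controls, a difference of 1.98 (adjusted p = 0.0109). It was 1.31 without control 2 dpf replicate 1 (adjusted p = 0.0396), and the call was lost without control 4 dpf replicate 1 (adjusted p = 0.0641) or replicate 2 (adjusted p = 0.0751). Among 13 neutrophil markers tested, the 2 called in 5-HT larvae and the 2 in controls included ncf1, and 3 rose in reserpine larvae. Of the genes called, ncf1 and cybb code for parts of the phagocyte oxidase, cybb for its membrane subunit. The ncf1 difference was 1.67 in 5-HT larvae, 1.62 in reserpine larvae and 1.42 in controls. That of cybb was 1.69 in reserpine larvae and 1.39 in controls, and cybb was not called in 5-HT larvae. Without reserpine 4 dpf replicate 1 the reserpine differences were 0.99 for ncf1 and 1.03 for cybb, and both calls were lost. Of 19 pan-leukocyte genes 3 rose in 5-HT larvae, 4 in reserpine larvae and 5 in controls, with medians of 0.50, 0.70 and 0.49. They included fcer1g, an adaptor of immune receptors (1.63, 1.38 and 0.94). The number called higher depended on single arrays: leaving out 1 array gave 2 to 4 macrophage markers in 5-HT larvae, 1 to 6 in reserpine larvae and 1 to 6 in controls. It gave 0 to 3, 0 to 4 and 0 to 3 neutrophil markers, and 1 to 5, 1 to 10 and 0 to 7 pan-leukocyte genes.

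Of 29 cytokine and chemokine genes tested, 5 rose and 4 fell in 5-HT larvae, 6 rose and 2 fell in reserpine larvae, and 5 rose and 2 fell in controls (medians 0.13, 0.24 and 0.20). Leaving out 1 array gave 1 to 5 called higher in each comparison, and 0 to 4 called lower in 5-HT larvae and 0 to 2 in the others. The chemokine gene ccl20a.3 differed by 3.84 in 5-HT larvae, 3.08 in reserpine larvae and 3.76 in controls (adjusted p = 3.42e-04 in controls), and cxcl8b.3, a relative of cxcl8a, by 1.30, 1.08 and 1.08. The tumour necrosis factor gene tnfb rose in 5-HT larvae (1.26) and reserpine larvae (1.18). It was outside the up to 4 genes named per list in controls, where it was also higher at 4 dpf. The control values were 7.07 and 7.16 at 4 dpf, against 5.98 and 6.31 at 2 dpf. The macrophage growth factor gene csf1a fell by 0.89 in reserpine larvae and by 0.70 in controls. In 5-HT larvae, where it was outside the genes named, csf1a was lower at 4 dpf too (7.54 and 7.86, against 8.37 and 8.30 at 2 dpf). Of 46 receptor, NF-κB and inflammasome genes 4 rose in 5-HT larvae, 6 in reserpine larvae and 4 in controls (medians 0.20, 0.26 and 0.28). These counts were 0 to 5, 0 to 10 and 0 to 8 when 1 array was left out. The NF-κB inhibitor gene nfkbiaa rose in each (1.28, 1.25 and 1.30), and irak3, a brake on receptor signalling, rose by 1.74 in reserpine larvae (SE 0.31, adjusted p = 0.0116). In the other groups irak3 was not called but was higher at 4 dpf too. It read 7.61 and 6.95 in 5-HT larvae, against 6.49 and 6.31 at 2 dpf. In controls it read 7.01 and 6.80, against 5.83 and 5.97 at 2 dpf.

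Among 32 acute-phase and complement genes 6 rose in 5-HT larvae, 3 in reserpine larvae and 4 in controls (medians -0.01, 0.16 and 0.41). Leaving out 1 array gave 2 to 6 in 5-HT larvae and 1 to 4 in reserpine larvae. In controls it gave 2 to 19, the highest without control 2 dpf replicate 2, and a median of -0.10 to 0.94. The complement gene c3a.2 differed by 2.82, 4.02 and 3.85, and cfd, the protease complement factor D, by 1.12, 0.99 and 1.29. The C-reactive protein relative crp1 rose by 0.88 in 5-HT larvae and by 0.64 in controls. In reserpine larvae, where it was not called, crp1 was higher at 4 dpf too (7.94 and 7.72, against 7.10 and 7.25 at 2 dpf). The list mean of control 2 dpf replicate 1 was 7.34, against 8.16 to 8.45 on the other 2 dpf arrays. On that array crp3 was lowest at 6.34, against 6.45 in 5-HT and 6.58 in reserpine replicate 1 of 2 dpf. In every group crp3 was lower on replicate 1 than on replicate 2. The mean over liver markers was 9.50 on control 2 dpf replicate 1, against 10.46 to 10.81 on the other 2 dpf arrays. The part of these in the control values was not tested. Of 24 other metalloproteinase and inhibitor genes, 2 rose in each of the 3 comparisons. These were mmp30 (1.61, 1.22 and 1.35) and the inhibitor gene timp4.3 (1.73, 1.24 and 1.19), while the matrix protease gene mmp11b fell by 1.46, 1.74 and 1.42. In all 1 fell in 5-HT larvae, 2 in reserpine larvae and 2 in controls, and the list medians were -0.18, -0.18 and -0.11. Leaving out 1 array gave 2 called higher in 5-HT larvae and 0 to 2 in the others.

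Of these listed genes lygl1, ccl20a.3 and mmp11b kept their calls in all 3 age comparisons whichever array was left out. So did fcer1g and c3a.2 in reserpine larvae, fcer1g, cfd, mmp30 and timp4.3 in 5-HT larvae, and c3a.2 and cfd in controls. The other calls of listed genes named here were lost without at least 1 array. The call of crp1 in controls, for example, was lost in 11 of 12 such fits.

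Marker lists moved with age beside the members. The pan-leukocyte mean was 8.52 and 8.39 in 5-HT larvae, 8.81 and 8.26 in reserpine larvae and 8.45 and 8.30 in controls at 4 dpf, against 7.89 to 8.03 on the 2 dpf arrays. The macrophage mean lay between 7.97 and 8.35 at 4 dpf, against 7.37 to 7.69 at 2 dpf. The neutrophil mean lay between 7.78 and 8.20 at 4 dpf, against 7.44 to 7.59 at 2 dpf. The part of cell number in the members' age differences was not tested.

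For reserpine against control at 4 dpf, il1b, mmp9, mmp13a, crp3 and cxcl8a had both reserpine arrays above both control arrays, 5 of 9 members, where 11.3% of all features did. No member passed limma's test, and 0% of features were called in this comparison, with adjusted p = 1 for each member. At an unadjusted p under 0.05 there were 4 of 9 members, against 1.73% of all features. The members were chosen with earlier results of these data known. Their counts beside these shares, here and in the other comparisons, are therefore a description without a test. The median difference over members was 0.33, beside -0.01 over all features.

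The mmp9 difference was 1.30 (SE 0.33, 95% interval 0.56 to 2.03, unadjusted p = 0.00298) and the il1b difference 1.29 (SE 0.40, interval 0.39 to 2.18, unadjusted p = 0.00971). For crp3 it was 1.19 (SE 0.27, interval 0.59 to 1.79, unadjusted p = 0.00139). Each was more than 2-fold and larger than the difference between the replicates of either group, but none passed after adjustment over the features tested. The mmp13a difference of 1.78 (SE 0.75, unadjusted p = 0.0408) was 0.35 without reserpine replicate 2 and 3.2 without reserpine replicate 1. For cxcl8a the difference was 0.30 (SE 0.21, unadjusted p = 0.190), and its lower reserpine value was 6.47, against 6.4 for the higher control. Leaving out any 1 array gave 0.94 to 1.63 for il1b, 1.00 to 1.60 for mmp9 and 0.95 to 1.43 for crp3. The myeloid cell genes lay nearer to 0 than il1b, mmp9 and crp3, at 0.33 for mpx, 0.20 for lyz, 0.23 for mpeg1.1 and 0.04 for mpeg1.2 (interval -0.37 to 0.45). These averaged unlike arrays for mpx, lyz and mpeg1.1. On reserpine replicate 1 the 3 genes (10.17, 11.01 and 10.28) lay above both controls. On reserpine replicate 2 (9.38, 10.29 and 9.69) they lay within the range of the controls. Reserpine replicate 1 had the highest pan-leukocyte mean of all arrays (8.81) and replicate 2 the lowest of 4 dpf (8.26), while il1b, mmp9, mmp13a and crp3 were higher on replicate 2. In all 6 groups, not only this one, crp3 was higher on replicate 2.

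Other genes of the pathway had no call in this comparison. Listed genes with the smallest unadjusted p included irak3 at 0.96 (7.86 in reserpine larvae and 6.91 in controls), which was 0.44 without reserpine replicate 1 and 1.48 without replicate 2. The chemokine gene cxcl18b differed by 0.62, and by 0.39 without control replicate 2. The metalloproteinase inhibitor gene timp2b read 10.05 and 11.71 in reserpine larvae, against 10.03 and 9.71 in controls. Its difference of 1.01 was 0.18 without reserpine replicate 2 and 1.84 without reserpine replicate 1. The list that holds timp2b had a median of -0.08, with 7 of 24 genes above 0. Of other listed genes picked by the same rule, mmp11b (-0.365) and cfd (-0.25) were lower in reserpine larvae. The differences of ncf1 (0.50) and lygl1 (0.45) were -0.13 and 0.155 without reserpine replicate 1, and 1.13 and 0.745 without reserpine replicate 2. The acute-phase list as a whole had a median of 0.01 beside the crp3 value of 1.19. The macrophage, neutrophil and pan-leukocyte lists had medians of 0.02, 0.07 and 0.17.

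For reserpine against control at 2 dpf, il1b was the only member whose groups did not overlap in the higher direction, 1 of 9 against 11.5% of features. Its difference was 1.07 (SE 0.40, interval 0.17 to 1.96, unadjusted p = 0.0244, adjusted p = 0.998). It was 0.47 without reserpine replicate 1 and 1.67 without reserpine replicate 2. None of the 9 was called, where 0% of features were, and at an unadjusted p under 0.05 there was 1 member, against 4.17% of features. The mmp9 difference was 0.42 and the mmp13a difference 0.21, both with intervals that held 0. The acute-phase list had a median of 0.40, with 29 of 32 genes above 0, and of -0.09 to 1.105 when 1 array was left out. This was not particular to reserpine. The 2 dpf controls, which serve both treatments, had list means of 7.34 on replicate 1 and 8.26 on replicate 2. In 5-HT larvae of that age the list median was 0.73, with 27 of 32 genes above 0, and 0.11 to 1.22 when 1 array was left out.

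For 5-HT against control at 2 dpf, il1b, mmp9, mpx and mpeg1.2 had both 5-HT arrays above both control arrays, 4 of 9 members, where 20.6% of features did. The mpeg1.2 difference was 0.59 (SE 0.18, interval 0.18 to 1.00, unadjusted p = 0.00915, adjusted p = 0.180) and the il1b difference 0.87 (SE 0.40, interval -0.02 to 1.76, adjusted p = 0.349). For mmp9 it was 0.55 (SE 0.33) and for mpx 0.35 (SE 0.26). None of the 9 was called, where 0.00688% of features were, and 1 had an unadjusted p under 0.05, against 14.9% of features. Among the listed genes the macrophage gene cd68 read 11.55 and 12.04 in 5-HT larvae and 9.72 and 11.05 in controls, a difference of 1.41 (adjusted p = 0.128). Without control replicate 1 it was 0.75 (adjusted p = 0.369). The gene wasb, a regulator of actin in blood cells, differed by 0.65. Neither gene passed.

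For 5-HT against control at 4 dpf all 9 differences were above 0, between 0.10 for lyz and 0.37 for mpeg1.2 and crp3, and all 9 intervals held 0. Leaving out 1 array turned 5 of them, to as low as -0.11 for il1b, -0.17 for cxcl8a, -0.24 for mmp9, -0.09 for mmp13a and -0.11 for lyz. On its other probe set lyz differed by -0.35. Differences above 0 made up 48.2% of all features. The 4 members mpx, mpeg1.1, mpeg1.2 and crp3 had both 5-HT arrays above both control arrays, where 21.6% of features did. No member was called (0% of features) or had an unadjusted p under 0.05, where 8.5% of features did. The smallest adjusted p was 0.628, for mpeg1.2. Both treatments of an age were set against the same 2 control arrays, so their differences share those values.

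Set directly against each other at 4 dpf, 5-HT larvae lay below reserpine larvae without overlap in il1b, mmp9 and crp3, 3 of 9 members, where 21.6% of features did. The differences of 5-HT from reserpine larvae were -1.17 for mmp9 (SE 0.33, unadjusted p = 0.00548, adjusted p = 0.283), -1.02 for il1b (SE 0.40, adjusted p = 0.401) and -0.82 for crp3 (SE 0.27, adjusted p = 0.320). For mmp13a it was -1.65 (adjusted p = 0.473), with an interval from -3.33 to 0.04. Again 0 of 9 were called, where 0% of features were, and 3 had an unadjusted p under 0.05, against 10.8% of features. In the other direction mpeg1.2 alone did not overlap, 1 of 9 members against 20.2% of features, with 5-HT larvae higher by 0.33. At 2 dpf the differences lay between -0.43 for lyz and 0.42 for mpx, all 9 intervals held 0, and no member was called (0% of features) or had an unadjusted p under 0.05 (6.04% of features). The members mpx, mpeg1.1 and mpeg1.2 were higher in 5-HT than in reserpine larvae without overlap at 2 dpf, 3 of 9 against 16.8% of features.

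**Figure D3:**
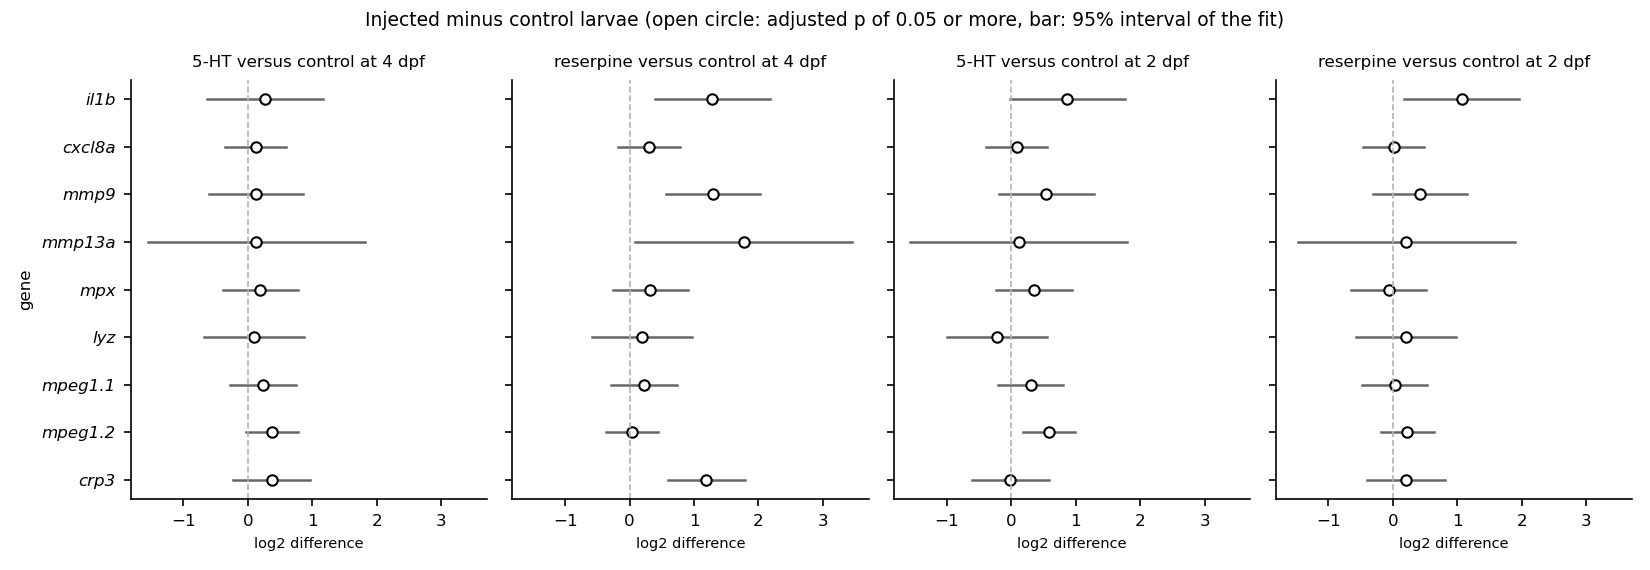
Log2 differences of the treatment comparisons for each gene at each age (points, estimates; bars, 95% intervals of the limma fit). For reserpine against control at 4 dpf the intervals of il1b, mmp9, mmp13a and crp3 lie above 0, and none of these genes passed after adjustment.

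The effect of a treatment was also set between the ages, as the treatment difference at 4 dpf minus that at 2 dpf. For 5-HT these ran from -0.61 for il1b to 0.39 for crp3, with adjusted p of 0.653 or more, and no member was called, against 2.16% of features. For reserpine they ran from -0.19 for mpeg1.2 to 1.57 for mmp13a (SE 1.06), and no member was called, where 0% of features were. The crp3 value was 0.99 (SE 0.38, interval 0.14 to 1.83, unadjusted p = 0.0272, adjusted p = 1.00), and that of mmp9 was 0.88 (SE 0.46).

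Replicates of the same number shared a direction for several members. Replicate 1 of lyz lay above replicate 2 in 6 of 6 groups, by 0.14 to 0.81, as 5.66% of all features did. The lower lyz probe set, 13145708, did the same, by 0.26 to 1.23, and read between 6.98 and 8.30. For crp3 replicate 1 lay below replicate 2 in 6 of 6 groups, by 0.14 to 0.57, as 4.81% of features did. The members mpx, mpeg1.1 and mpeg1.2 had replicate 1 higher in the 3 groups of 4 dpf and lower in the 3 groups of 2 dpf, a pattern that 1.55% of features had. For il1b and mmp9 replicate 1 was higher in 5 of 6 groups, and the exception was reserpine at 4 dpf.

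Other lists moved with the replicate number. The mean over clock and light-responsive genes was higher on replicate 1 in all 6 groups, for instance 10.11 and 9.37 on replicates 1 and 2 of 4 dpf 5-HT larvae and 9.07 and 8.72 on those of 2 dpf controls. The exocrine pancreas mean was lower on replicate 1 in the 3 groups of 2 dpf, at 7.22 and 8.52 in 5-HT larvae, 6.84 and 8.06 in reserpine larvae and 6.63 and 8.09 in controls. The part of these in the members' replicate differences was not tested. The labels do not say what a replicate number stands for.

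**Figure D4:**
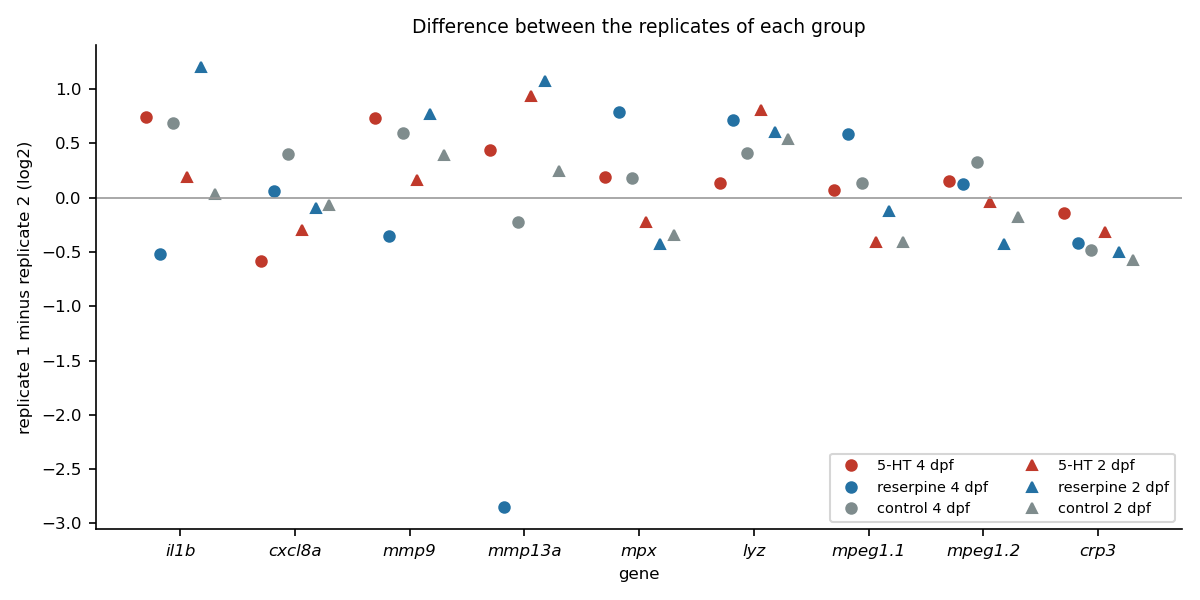
Replicate 1 minus replicate 2 (log2) of each gene in each of the 6 groups (circles, 4 dpf; triangles, 2 dpf; colours, treatments). All lyz points lie above 0 and all crp3 points below it, while the mmp13a point of 4 dpf reserpine larvae lies at -2.85.

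To ask which genes varied together, each value was taken minus the mean of the 6 arrays of its age, and Pearson's r was computed over the 12 arrays for 16313 named genes. The 12 values share the groups, the replicate numbers and the array scaling, and the partners were picked as the highest r, so r is a description without a test. Where the 2 arrays farthest from a median were left out, distance was taken before the age mean was subtracted. An array far from its age mean could therefore stay in. For il1b they were reserpine 4 dpf replicate 2 and control 2 dpf replicate 2, so reserpine 2 dpf replicate 1 stayed in. The highest partner of il1b was mmp9 (r = 0.93, Spearman's rho = 0.94, and r = 0.90 without the 2 arrays farthest from the il1b median). The next was fosl1a, which codes for a subunit of the AP-1 transcription factor (r = 0.93, rho = 0.90, and 0.90 without those arrays). The third was ptgs2a, a cyclooxygenase gene of prostaglandin synthesis (r = 0.85). Like il1b, fosl1a was high on both 4 dpf reserpine arrays (9.08 and 10.39) and on 2 dpf reserpine replicate 1 (10.41), and it read 7.48 on 2 dpf reserpine replicate 2. The partners of mmp9 were il1b, cxcl18b (r = 0.89) and fosl1a (r = 0.87).

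The mean over the immediate early and stress genes, which hold fosl1a, was higher on replicate 1 in all 6 groups. On the replicate 1 arrays it was highest in reserpine larvae, at 8.84 at 4 dpf and 8.83 at 2 dpf, against 8.53 to 8.70 in the other groups. On 4 dpf reserpine replicate 2, where il1b and mmp9 were highest, it was 8.58, against 8.24 to 8.45 on the other replicate 2 arrays. Its part in the il1b values was not tested. For il1b and mmp13a r was 0.69, and for mmp9 and mmp13a it was 0.74.

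The closest partners of mmp13a followed 1 array. They were timp2b (r = 0.90, rho = 0.48), the leptin gene lepb (r = 0.90, rho = 0.56) and fsip1 (r = 0.85, rho = 0.54). Without the 2 arrays farthest from the mmp13a median r was 0.32, 0.10 and 0.35. On 4 dpf reserpine replicate 2 lepb read 7.19, against 4.76 to 5.46 on the other arrays, and timp2b 11.71, against 9.71 to 10.67.

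Among the myeloid cell genes the values of mpx and mpeg1.1 were close. For mpx and mpeg1.1 r was 0.92 (rho = 0.89, and 0.93 without the 2 farthest arrays), and both had csf2rb, which codes for a shared receptor chain of myeloid growth factors in mammals, among their partners (r = 0.94 for mpx and 0.96 for mpeg1.1). The highest partner of mpx was lgals9l1, a galectin gene (r = 0.96), and mpeg1.2 had r of 0.63 with mpx and 0.64 with mpeg1.1. For il1b r was 0.08 with mpx and 0.12 with mpeg1.1, and without the 2 farthest arrays 0.30 and 0.40. For mmp9 and mpx it was 0.17, and 0.14 without them. For lyz r was -0.09 with mpx, -0.18 with mpeg1.1, 0.33 with il1b and 0.32 with mmp9. Without the 2 farthest arrays these were -0.33, -0.15, 0.50 and 0.47. Its partners were sf3b2, a splicing factor gene (r = 0.93), ddb1, of DNA damage binding (r = 0.92), and cnbpa (r = 0.91).

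Partners of the other members were as follows. For crp3 they were ovch1 (r = 0.88), a2m3b, of the alpha-2-macroglobulin family of protease inhibitors (r = 0.87), and fbxo28 (r = 0.82). Both ovch1 (5.16 to 6.19) and a2m3b (4.93 to 5.72) lay below the median of every array. Like crp3, a2m3b was lower on replicate 1 than on replicate 2 in every group. For mpeg1.2 they were tpst2, a protein sulfation enzyme gene (r = 0.89), SLC16A13 and b4galnt1a (r = 0.89 each). For cxcl8a, over its narrow range, they were dnase2b (r = 0.87), golga7 (r = 0.85) and kif3a (r = 0.84).

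**Figure D5:**
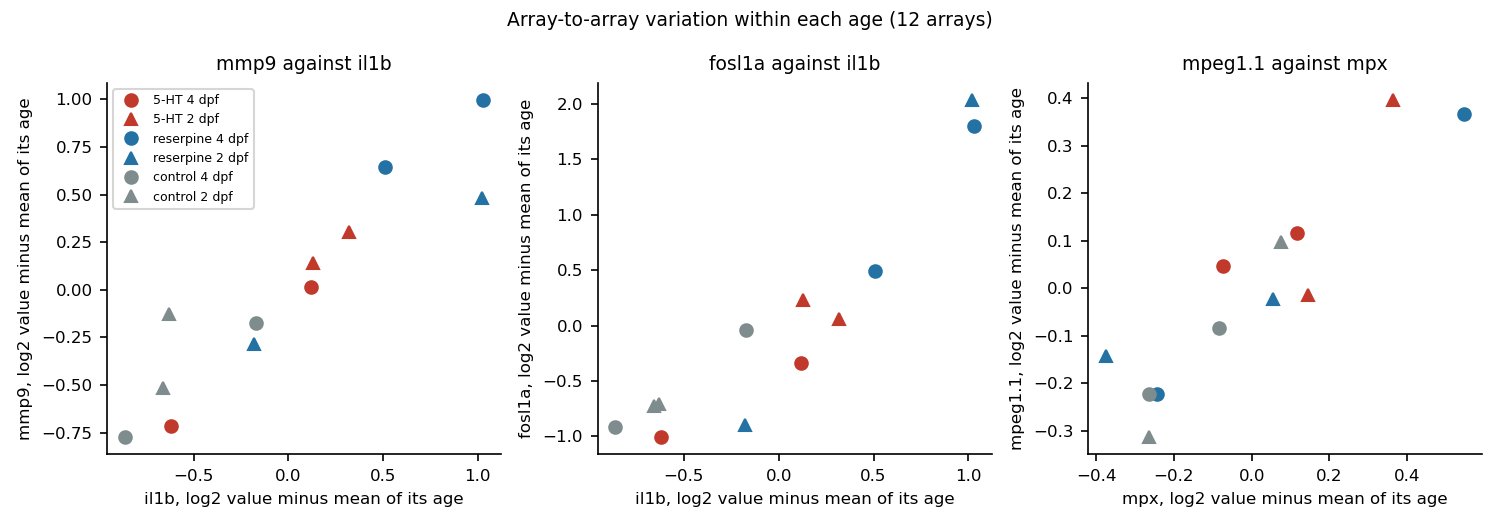
Array values minus the mean of their age (log2) over the 12 arrays, in panels for mmp9 against il1b, fosl1a against il1b and mpeg1.1 against mpx (colours, treatments; symbols, ages). The points of each panel rise from lower left to upper right, with r = 0.93, 0.93 and 0.92.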

How the data were processed

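Total RNA of zebrafish larval pools was hybridised to 12 Affymetrix Zebrafish Gene 1.0 ST arrays, per the labels. The deposited table holds log2 expression values for 73244 features, read as log2 from their range. No source used here names the software or the normalization behind them. Array medians lay between 6.44 and 6.56, and 0 columns of the table were left unused. The values were used as deposited, and precision is limited by 2 arrays per group.

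Genes were named from the platform annotation, updated through a RefSeq gene table: 20491 probe sets carried 1 symbol, 842 several and 51911 none, and 20013 of the first matched RefSeq. One further probe set that carries mpx with another symbol was not used.

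Features were tested where at least 2 of 12 arrays reached their own 25th percentile (58127 features). The 6 group means were fitted over all arrays by lmFit of limma 3.58.1 (R 4.3.3), followed by eBayes and two-sided tests (6 residual and 3.53 prior degrees of freedom). Each of 11 comparisons was Benjamini-Hochberg adjusted, with a threshold of 0.05. The median SE of a difference was 0.20. The labels give biological replicates without naming separate clutches, so p-values measure the spread between these pools. The fit was tested on simulated data with errors drawn separately for each array. That simulation held no direction shared by replicates of the same number. Filters, quantile normalization, an intensity trend, a replicate block, fewer arrays, the other lyz probe set and leaving out each array were the alternatives. Leaving out arrays for the listed genes was chosen after seeing the data.

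Genes named are the 9 members, up to 4 called genes per list with the smallest p (otherwise up to 2, as values), and for each member the 3 genes of highest correlation. The members and the 15 gene lists were chosen with earlier results of these data known. In the fit over all arrays none of the 15 lists had a called gene in a treatment comparison or an interaction. That absence depended on single arrays, since some lists gained calls when 1 array was left out. They included the acute-phase and liver lists in 5-HT larvae against controls at 2 dpf. There the acute-phase median ranged from 0.11 to 1.22 and the liver median from -0.0025 to 1.20.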

Additional observations from a re-analysis of the deposited data

How the results depend on the processing

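In the 6 treatment comparisons and the 2 interactions, 0 members were called by limma under every alternative run. In the 3 age comparisons mpeg1.2 was called under every alternative, and crp3 under every alternative in 5-HT and reserpine larvae. The count of members called was 3 in 5-HT larvae with a replicate block, where il1b passed (adjusted p = 0.0368), 5 in reserpine larvae and 3 in controls. The block changed no other call of a member. The replicate numbers were not stated to pair samples. The replicate differences correlated at -0.07 to 0.33 over 15 pairs of groups, above 0 in 14 of them, and the main fit holds no term for this. With only the arrays of the groups compared, 2 members were called in reserpine larvae, and il1b (adjusted p = 0.0857), mmp9 (0.0927) and mpeg1.1 (0.162) missed the threshold. That fit rests on fewer arrays and called 831 features, against 4038. Leaving out 1 array gave 2 to 3 members in 5-HT larvae, 2 to 5 in reserpine larvae and 1 to 4 in controls. With 1 array left in a group, that array was taken to vary like the other groups. A stricter filter or an intensity trend added il1b in 5-HT larvae (adjusted p = 0.0419 and 0.0455) and mpeg1.1 in controls (0.0445 and 0.0475).

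No called value changed sign. Of 693 member differences under the alternatives other than leaving out 1 array, 5 uncalled ones did, 4 of them lyz on its lower probe set (-0.35 for 5-HT against control at 4 dpf). Leaving out 1 array turned 74 of 1188. The number of features called, over all alternatives, was 0 to 1215 for 5-HT against control at 2 dpf (4 as reported), 0 to 372 for the same at 4 dpf (0), 0 to 97 for reserpine against control at 2 dpf (0) and 0 at 4 dpf. It was 0 to 191 and 0 to 421 for 5-HT against reserpine at 2 and 4 dpf (0 each), and 0 to 2458 for the 5-HT interaction (1253). Between ages it was 1101 to 7172 in 5-HT larvae (5357), 831 to 5451 in reserpine larvae (4038) and 1457 to 8569 in controls (6578). The cause was not tested. Values near the array median, such as those of cxcl8a, have unknown signal over background.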
